A study of Mus musculus with 115 samples.

Results

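The report concerns 33 autosomal genes of DNA damage repair in mouse prostate tissue labelled as tumor: genes of homologous recombination, of the Fanconi anemia pathway, of the damage checkpoint, of poly(ADP-ribose) polymerization and of mismatch repair, with the DNA polymerase gene Polq. They were chosen by name from the 45699 genes of the deposited expression table and matched to Ensembl mouse identifiers through their symbols, and all 33 were found. Bulk RNA was sequenced from prostates of (TRAMP x WSB/EiJ) F2 males. In TRAMP mice the SV40 T antigen is driven by a minimal, androgen-responsive probasin promoter in prostate epithelium. TRAMP females on the C57BL/6J background had been bred with males of the wild-derived strain WSB/EiJ, and F1 offspring were intercrossed. All libraries carry the label transgene positive and form 1 group with no untreated or transgene-negative library, so the relations given here are across prostates and not between treatments. The mice were followed to a common endpoint or to a humane endpoint, the labels give no age, and for small prostates the study took RNA from the ventral lobe, and how much of each sample was tumor is not given in the sources used here.

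Cells repair a double-strand break in replicated DNA by homologous recombination, in which a strand of the sister molecule is copied. BRCA1, with its partner BARD1, and PALB2 bring BRCA2 to the break, and the Fanconi anemia proteins join the same machinery to unhook crosslinks between the strands. ATM and ATR are the kinases that signal damage, and many repair genes are transcribed mainly in cells that copy their DNA. Each member was therefore set against Mki67, which encodes the Ki-67 protein of cycling cells.

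Expression was given as TPM, a length-scaled share of all transcripts of a library that allows levels to be compared between genes per length but keeps no read depth. The libraries fell into separate parts of 79 and 36 on the first principal component, which held 48.7% of the variance of the 14623 genes whose mean TPM was 1 or more. The same 79 and 36 were found when the members, the further repair genes listed and the proliferation genes were left out, with 0 libraries changing part. Mki67 ranged from 0.39 to 25.73 TPM in the 79 libraries and from 20 to 144.47 TPM in the 36, and within neither did it separate again. Correlations were therefore computed within the 79 libraries and, beside them, within the 36, never over both. The parts were found from the expression values and are not groups of the study. The 20 genes with the largest share took 48.9% to 81.8% of a library's TPM. Among prostate luminal markers Acpp and Pbsn had medians under 1 TPM while the other 8 of 10 did not, and the summed luminal level ranged from 336 to 60375 TPM in the 79 libraries and from 49.1 to 2429 TPM in the 36. The summed neuroendocrine level ranged from 1.31 to 45.05 TPM in the 79 and from 8.26 to 728 TPM in the 36, with Chga, Chgb, Syp, Insm1 and Scg2 at medians under 1 TPM over all libraries. Basal epithelial genes summed to 2.64 to 40.4 TPM and 0.03 to 9.8 TPM, and seminal vesicle genes to 1.92 to 172504 TPM and 1.49 to 242.3 TPM, in the same order. The part of these cell types in the members' levels in the 79 and the 36 was not tested.

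All 33 members were measured above 0 in every library, whereas 1636 of the 14623 genes kept were listed at 0 in at least 1. Of the members, 31 reached 1 TPM in at least 50% of libraries, and 13 did so in all of them. The members under that share were Bard1, which reached 1 TPM in 49 libraries, and Polq, which did in 53. The median TPM of the members was 3.52 at its middle value, against 5.59 over all genes kept. Parp1, the polymerase that marks DNA breaks with ADP-ribose chains, had the highest median of 23.54 TPM, with a lowest value of 6 and a highest of 95.34 TPM. Brca2 followed at a median of 12.56 TPM and a range of 2.96 to 82.86 TPM. Msh6, a mismatch sensor, came next at 11.04 TPM and ranged from 3.01 to 30.51 TPM.

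The spread over libraries was wide for some members and narrow for others. For each gene, the level at the 90th percentile of all libraries was divided by that at the 10th, so the ratio takes in any gap between the 79 and the 36. This ratio was 8.18 at the median of the members and 4.24 over all genes kept. It was largest for Bard1 at 82.1, Polq at 64, Rad51ap1 at 58.6, Rad54b at 45.5 and Brca1 at 44.3, and it was 80 for Mki67 itself. Brca1 had a lowest level of 0.11, a median of 2.44 and a highest of 36.68 TPM, and Bard1 ran from 0.05 through a median of 0.62 to 14.26 TPM. Polq, whose polymerase joins broken ends at short repeats, ran from 0.05 through 0.87 to 21.42 TPM. At the other end Fance, a subunit of the Fanconi core complex, had a ratio of 1.98, with a range of 4.36 to 18.02 and a median of 9.49 TPM. The break sensors Nbn and Rad50 had ratios of 2.42 and 2.63, and Parp1 one of 2.57. Bard1 had medians of 0.36 TPM in the 79 and 10.02 TPM in the 36 libraries, Polq 0.45 and 11.81 TPM, and Fance 10.08 and 9.03 TPM. The 5 genes with the largest ratios had medians of 0.62 to 3.52 TPM, and the 4 named with small ratios had medians of 6.99 to 23.54 TPM. A small ratio leaves out the tails, as for Parp1, whose highest value was 95.34 TPM.

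**Figure D1:**
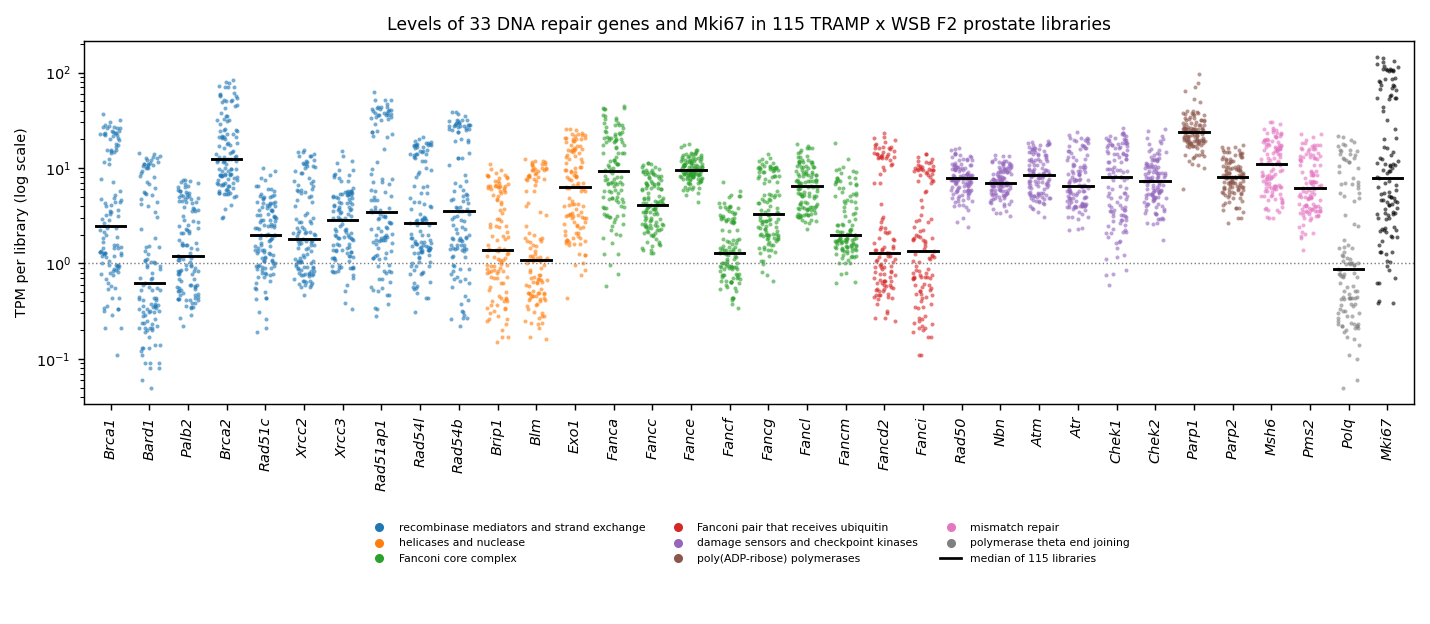
TPM of the 33 repair genes and Mki67 (x axis) in each library (79 + 36), on a log scale (y axis), coloured by the role of the gene, with a bar at the median and a dotted line at 1 TPM. Of the 33, Bard1, Polq, Rad51ap1, Rad54b and Brca1 spread widest between the 10th and 90th percentiles, and Fance, Nbn, Rad50 and Parp1 least. Single points of Parp1 lie outside that band, from 6 up to 95.34 TPM.

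Every member rose with Mki67 in the 79 libraries. The Pearson correlation on log2(TPM + 1) had a median of 0.82 over the members, with a range from 0.38 to 0.96, and 33 of 33 passed the test (permutation test with 100000 permutations of Mki67, two-sided, Benjamini-Hochberg adjusted p under 0.05 over 14621 genes). The background was high: 72.9% of all genes tested were also called as rising with Mki67 and 1.41% as falling, at a median r of 0.43. The count of 33 is to be read against that share. The filter took the mean over all libraries, so a member could pass it through its level in the 36. Bard1 and Polq had means of 3.16 and 4.06 TPM over all libraries. Their medians in the 79 were 0.36 and 0.45 TPM. In bulk tissue, fewer cells of a type and less RNA per cell cannot be told apart in any of these values. For 32 members the raw p of both r and rho was 1e-05, the smallest that the permutations can give, with adjusted p of 2.31e-05 for r and 2.32e-05 for rho. For Brca2 the raw p of r was 0.0005 and the adjusted p 0.000868. All 33 were also called with a pseudocount of 0.1 (73.1% of all genes), by rho (73.8%), with no filter on low values (36.1%) or a mean of 0.1 TPM (56.1%), without the 2 farthest libraries (71.9%) or 1 library whose label nearly matches another (73%), and against an index of other proliferation genes (69.7%).

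The composition of the libraries also moved with Mki67. The share of TPM held by the 20 genes fell as Mki67 rose (r = -0.63, rho = -0.63, permutation p = 1e-05, adjusted p = 4.40e-05 over 22 relations, r = -0.62 once the 2 libraries with Mki67 farthest from its median were left out). When each library was rescaled by the median of its ratios to a common reference, the median r of all genes dropped to -0.02 and the share called higher to 22.2%. Under that scaling 30 of 33 members were still called higher, with a median r of 0.74. The 3 that were not were Brca2 at r = -0.02, Fance at 0.00 and Parp1 at 0.14. Rescaling without the 20 genes left 31 of 33 against 33.5% of all genes. The rise of these 3 genes with Mki67 was thus called on deposited TPM and not on the values scaled by the median of ratios, under which the sign of Brca2 was negative.

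An index of immune genes also rose with Mki67 in the 79 libraries (r = 0.61, rho = 0.65, permutation p = 1e-05, adjusted p = 4.40e-05, r = 0.58 without 2 libraries). The stroma index had a lower r (r = 0.33, rho = 0.38, permutation p = 0.00283, adjusted p = 0.00778, r = 0.35 without 2 libraries), and the luminal index passed by rho but not by r (rho = 0.37, permutation p = 0.00086, adjusted p = 0.00189, against r = 0.22, permutation p = 0.0513, adjusted p = 0.0753, r = 0.23 without 2 libraries). The summed immune level ranged from 9.5 to 903 TPM, with 4 of its 8 genes at a median of 1 TPM or more, and Cd3e, Cd79a, Cd4 and Cd8a below. With the immune index removed, 32 members were called, against 43.1% of all genes. The exception was Brca2, at r = 0.03 (adjusted p = 0.815). With all 5 tissue indices removed 32 members were called, again without Brca2, against 35% of all genes. Removing the first 3 principal components left 18 members called higher and 1, Nbn at r = -0.43, called lower, against 8.99% of all genes higher and 13.4% lower. Those 18 included Rad51ap1 at r = 0.79, Rad54b at 0.77, Fanci at 0.76, Brca1 at 0.75, Bard1 and Blm at 0.73 and Polq at 0.69. Brca2 was among the 18 as well, at r = 0.43 (permutation test, adjusted p = 0.00142).

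**Figure D2:**
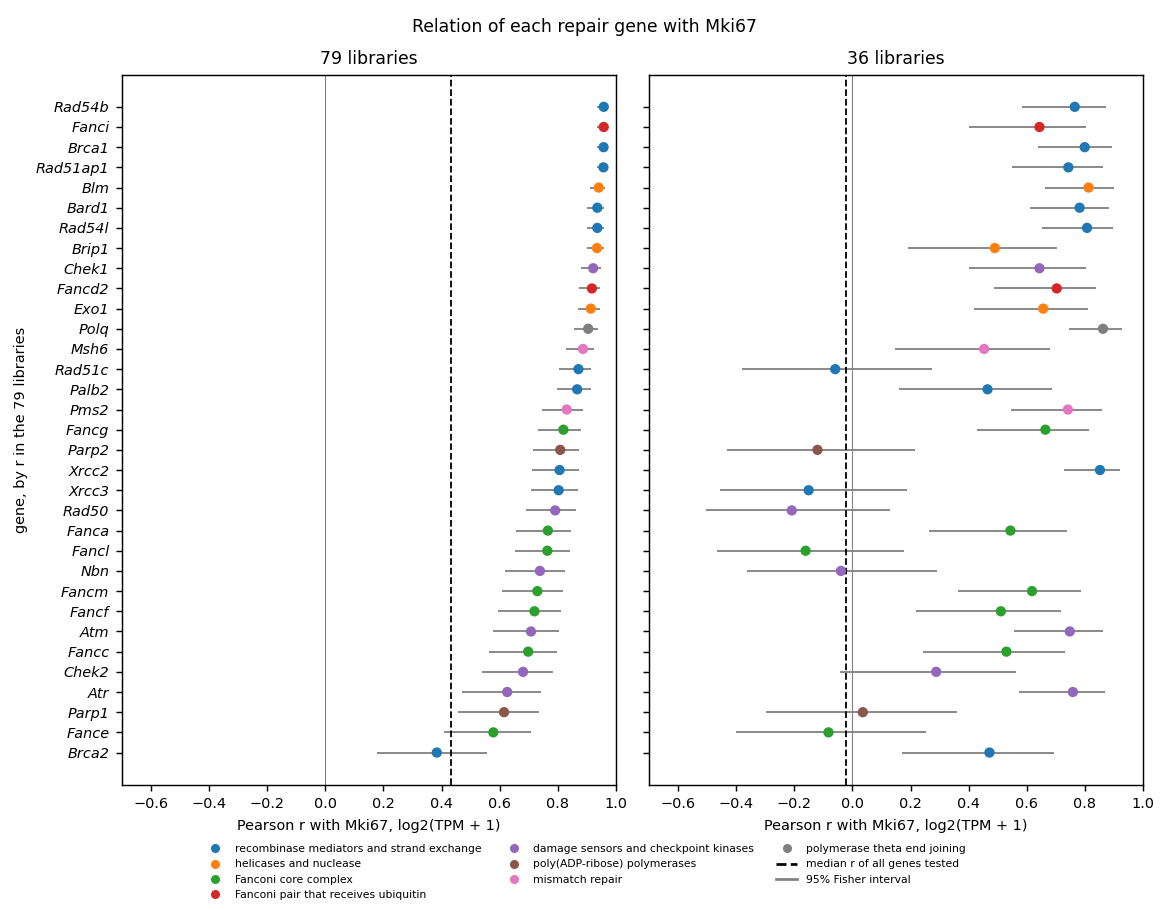
Pearson r with Mki67 on log2(TPM + 1) (x axis) for each of the 33 genes (y axis, ordered by r in the 79 libraries), in the 79 libraries on the left and the 36 on the right, with 95% Fisher intervals as grey lines and the median r of all genes tested as a dashed line. In the 79 libraries Rad54b, Fanci, Brca1 and Rad51ap1 reach 0.96 and Brca2 lies lowest at 0.38, while in the 36 libraries 7 genes lie below 0.

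Genes that act at the strand-exchange step held both ends of the order. Rad54b, a DNA-dependent motor protein, had the highest r of 0.96 (95% Fisher interval 0.94 to 0.97, rho = 0.95, 0.95 without 2 libraries), and each unit of log2 Mki67 went with 0.77 ± 0.03 (SE, n = 79) units of log2 Rad54b. Its levels over all libraries ran from 0.22 through a median of 3.52 to 38.87 TPM, and 69 of the 79 libraries lay on the same side of the median for both genes. Brca1 and Rad51ap1, whose product aids strand invasion, had the same r of 0.96. The intervals of Rad54b, Fanci, Brca1 and Rad51ap1 overlap almost fully. All intervals rest on the same libraries and Mki67 values, and no difference between members was tested, so their order is not resolved. Bard1 and Rad54l, the other RAD54 motor, followed at 0.94, then Rad51c at 0.87, Palb2 at 0.87, Xrcc2 at 0.81 and Xrcc3 at 0.80. Rad51c, Xrcc2 and Xrcc3 encode related proteins that act in the same repair step.

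Brca2, which encodes a mediator of strand exchange, had the lowest r of 0.38 (interval 0.18 to 0.56, rho = 0.41, 0.33 without 2 libraries). It was on the same side of the median as Mki67 in 53 of the 79 libraries, and the slope was 0.25 ± 0.07. Its interval lay wholly below those of 28 of the other 32 members, and overlapped those of Fance, Parp1, Atr and Chek2. Brca1 and Brca2, whose products act in 1 pathway, thus had intervals that did not overlap.

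Stretches of the promoters are shown because these genes rise with Mki67 to unlike degrees. They were taken from RefSeq on GRCm38.p6, from windows of 250 bases before to 50 after the start, less the bases that lie in any exon of GENCODE M21. Of the 33 members 27 matched an entry. Rad54b, Xrcc2, Exo1, Fancd2, Rad50 and Nbn have none. For Fanci, 258 of the 300 bases lie in exons, and no stretch is shown. Capitals mark letters of 5 motifs searched on both strands: E2F (TTTGGCGC, TTTCCCGC, TTTGGCGG or TTTCCCGG), NF-Y (CCAAT), CHR (TTTGAA or TTCGAA), SP1 (GGGCGG) and CREB (TGACGTCA). Brca1 and, added after its values were seen as the next by r, Rad51ap1 are among the highest, and Brca2, Fance and Parp1 are the lowest 3. They lie at chr11:101551956-101552148 on the minus strand, chr6:126939588-126939837 on the minus strand, and chr5:150522371-150522629, chr17:28313280-28313518 and chr1:180568641-180568923 on the plus strand, in this order.
Brca1: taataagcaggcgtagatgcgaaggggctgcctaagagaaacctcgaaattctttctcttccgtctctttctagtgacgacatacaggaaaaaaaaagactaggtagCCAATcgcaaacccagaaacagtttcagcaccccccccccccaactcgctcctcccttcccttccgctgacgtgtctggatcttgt
Rad51ap1: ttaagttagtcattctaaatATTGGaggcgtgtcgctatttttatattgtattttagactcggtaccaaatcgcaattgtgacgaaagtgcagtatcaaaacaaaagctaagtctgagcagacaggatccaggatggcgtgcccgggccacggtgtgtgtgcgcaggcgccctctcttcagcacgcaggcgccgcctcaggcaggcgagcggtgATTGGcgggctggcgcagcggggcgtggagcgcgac
Brca2: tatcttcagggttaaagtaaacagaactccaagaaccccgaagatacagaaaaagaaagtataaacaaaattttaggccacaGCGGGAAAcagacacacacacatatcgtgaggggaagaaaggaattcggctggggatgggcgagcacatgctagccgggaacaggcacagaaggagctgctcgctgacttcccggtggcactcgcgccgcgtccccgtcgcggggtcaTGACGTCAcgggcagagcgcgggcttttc
Fance: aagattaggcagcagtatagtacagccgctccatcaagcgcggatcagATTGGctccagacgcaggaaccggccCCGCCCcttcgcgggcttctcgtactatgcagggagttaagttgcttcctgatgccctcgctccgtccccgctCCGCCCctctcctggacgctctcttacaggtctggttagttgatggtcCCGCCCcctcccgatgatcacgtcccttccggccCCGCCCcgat
Parp1: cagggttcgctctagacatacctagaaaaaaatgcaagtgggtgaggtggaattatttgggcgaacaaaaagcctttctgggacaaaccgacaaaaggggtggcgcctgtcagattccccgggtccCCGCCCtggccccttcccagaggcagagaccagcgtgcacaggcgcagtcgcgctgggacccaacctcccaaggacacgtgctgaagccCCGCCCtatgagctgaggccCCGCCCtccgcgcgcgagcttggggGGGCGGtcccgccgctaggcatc

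Brca1 held 1 CCAAT box, 86 bases before the start, and Rad51ap1 held 2. Brca2 held E2F letters 168 bases before the start and the CREB letters 20 bases before it, and no CCAAT. Fance held 1 CCAAT and 5 SP1 boxes in its whole window, and Parp1 held 4 SP1 boxes and none of the other motifs. Among the 27 members with a window, 6 had E2F letters, namely Bard1, Brca2, Fancg, Chek1, Chek2 and Msh6, which is 22.2% against 3.40% of all 27025 promoters listed and 5.98% of the 10240 whose gene passed the expression filter. CCAAT was in 16, or 59.3%, against 37.9% and 38.7%. SP1 letters were in 66.7%, against 35.9% and 64.2%, and CHR letters in 11.1%, against 19.4% and 13.8%. CREB letters were in 7.41%, against 1.88% and 3.29%. Over the 27 members the median r with Mki67 in the 79 libraries was 0.82 both with and without CCAAT, and 0.82 both with and without SP1 letters. It was 0.85 with E2F letters and 0.81 without. For CHR letters it was 0.91 in the 3 members with them and 0.81 in the others, and for CREB letters 0.63 in the 2 with them and 0.82 in the others. These are matches of letters in short windows, and neither their shares nor their relation with r was tested.

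The helicases and the nuclease moved closely with Mki67. Blm, which dissolves recombination intermediates, ran from 0.16 through 1.10 to 12.39 TPM and had an r of 0.94 (interval 0.91 to 0.96, rho = 0.96, 0.94 without 2 libraries). Exo1, the nuclease that resects broken ends, had the lowest r of this role, 0.91 (interval 0.87 to 0.94, rho = 0.90, 0.90 without 2 libraries), with a level from 0.44 through 6.31 to 25.79 TPM. Brip1, the helicase partner of BRCA1, had an r of 0.94.

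In the Fanconi pathway a core complex attaches ubiquitin to the pair FANCD2 and FANCI. Fanci had an r of 0.96 (interval 0.94 to 0.97, rho = 0.97, 0.95 without 2 libraries) and a range of 0.11 to 14.05 TPM around a median of 1.34. Fancd2 had an r of 0.92 (interval 0.87 to 0.95, rho = 0.93, 0.91 without 2 libraries) and a range of 0.25 to 23.29 TPM around 1.30. Of the 7 core genes, the highest was Fancg at 0.82 (interval 0.73 to 0.88, rho = 0.79, 0.80 without 2 libraries) and the lowest Fance at 0.58 (interval 0.41 to 0.71, rho = 0.59, 0.57 without 2 libraries). Between them lay Fanca at 0.77, Fancl, the ubiquitin ligase subunit, at 0.76, Fancm at 0.73, Fancf at 0.72 and Fancc at 0.70. The interval of Fanci lay above those of all 7 core genes, as it lay above those of 21 members in all, while that of Fancd2 overlapped the interval of Fancg.

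Among sensors and kinases the effector kinase Chek1 stood apart, with an r of 0.92 (interval 0.88 to 0.95, rho = 0.92, 0.92 without 2 libraries) and the steepest slope of any member, 0.82 ± 0.04. Its level ran from 0.60 through 8.10 to 26.15 TPM. Slopes were taken on log2(TPM + 1), where the added 1 flattens genes under 1 TPM. Bard1, at a median of 0.36 TPM in the 79 libraries, had a slope of 0.34 ± 0.01 at an r of 0.94. The slope of so low a gene is not comparable with that of Chek1. Atr, which activates the CHK1 kinase, had the lowest r of the role, 0.63 (interval 0.47 to 0.74, rho = 0.65, 0.60 without 2 libraries), at 2.25 to 23.71 TPM around a median of 6.55. Atm had an r of 0.71 and its effector Chek2 one of 0.68. Rad50 and Nbn, which with the MRE11 nuclease hold broken ends, had r values of 0.79 and 0.74. Atm and Atr thus moved less steeply with Mki67, at slopes of 0.35 ± 0.04 and 0.27 ± 0.04, than Chek1.

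For the polymerases of ADP-ribose, Parp2 had an r of 0.81 (interval 0.72 to 0.87, rho = 0.80, 0.80 without 2 libraries) and Parp1 one of 0.62 (interval 0.46 to 0.74, rho = 0.63, 0.60 without 2 libraries). Of the mismatch repair genes, Msh6 had an r of 0.89 (interval 0.83 to 0.93, rho = 0.89, 0.88 without 2 libraries) and Pms2, the endonuclease subunit that acts after it, one of 0.83 (interval 0.75 to 0.89, rho = 0.80, 0.82 without 2 libraries). Polq had an r of 0.91 (interval 0.86 to 0.94, rho = 0.91, 0.90 without 2 libraries) at a slope of 0.35 ± 0.02, over levels of 0.05 to 2.58 TPM in these libraries. Bard1 and Xrcc2 separated within the 79 libraries, Bard1 into 57 libraries up to 0.59 and 22 from 0.62 TPM, and Xrcc2 into 43 up to 1.22 and 36 from 1.25 TPM. Within these, r with Mki67 was 0.95 and 0.86 for Bard1 (rho = 0.96 and 0.80, permutation p = 1e-05 and 2e-05, adjusted p = 4e-05 for both over 4 relations, r = 0.95 and 0.72 without 2 libraries). For Xrcc2 it was 0.36 and 0.61 (rho = 0.40 and 0.61, permutation p = 0.0174 and 6e-05, adjusted p = 0.0174 and 8e-05, r = 0.30 and 0.62 without 2 libraries). Each cut was made on the level of the same gene, which narrows its range and by itself lowers r. The values within the cuts therefore cannot be set against the r over the 79 libraries.

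**Figure D3:**
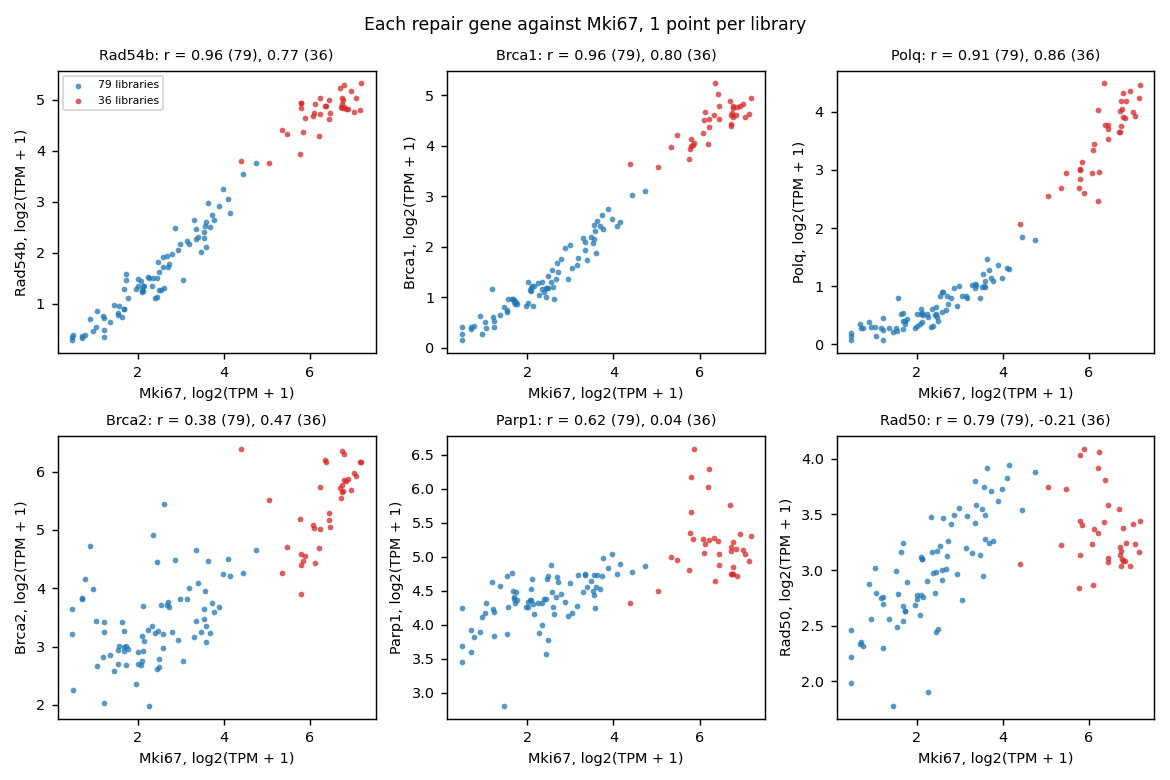
Level of 6 repair genes (y axes) against Mki67 (x axes), both as log2(TPM + 1), with 1 point per library, blue for the 79 libraries and red for the 36. Rad54b, Brca1 and Polq follow Mki67 in both sets of points, Brca2 scatters widely in the blue points, and Parp1 and Rad50 rise with Mki67 in the blue points (r = 0.62 and 0.79) but had r of 0.04 and -0.21 in the red.

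In the 36 libraries 24 of 33 members were called higher with Mki67 and 0 lower, against 23.3% of all genes called higher, with a median r of 0.62 for the members and -0.02 for all 14611 genes tested. Polq had the highest r of 0.86 (interval 0.75 to 0.93, rho = 0.84, permutation p = 1e-05, adjusted p = 0.000140, 0.83 without 2 libraries), followed by Xrcc2 at 0.85, Blm and Rad54l at 0.81 and Brca1 at 0.80. Atr and Atm had r values of 0.76 and 0.75. All 3 helicase and nuclease genes, both Fancd2 and Fanci and both mismatch repair genes were called. Neither polymerase of ADP-ribose was, nor were the break sensors.

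The 9 members not called were Rad51c at r = -0.06, Xrcc3 at -0.15, Fance at -0.08, Fancl at -0.16, Rad50 at -0.21, Nbn at -0.04, Chek2 at 0.29, Parp1 at 0.04 and Parp2 at -0.12. Their adjusted p ranged from 0.149 for Chek2 to 0.878 for Parp1, and the intervals were wide, as for Rad50 from -0.50 to 0.13 and for Parp1 from -0.30 to 0.36. Rad51c, Xrcc2 and Xrcc3 parted here, with Xrcc2 at 0.85 (interval 0.73 to 0.92) apart from Rad51c (-0.38 to 0.28) and Xrcc3 (-0.46 to 0.19). That parting was seen against Mki67 only. Against the index of other proliferation genes Xrcc2 had an r of 0.14, Rad51c of 0.38 and Xrcc3 of -0.18, with none called. Median-of-ratios scaling in these libraries left 24 members called higher, against 23.6% of all genes, and Fance (r = -0.38) and Rad50 (r = -0.55) were called lower, as were 38.4% of all genes. Whether any gene's relation differed between the 79 and the 36 libraries was not tested, since the parts come from the same values.

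Several of the 24 calls rested on 2 libraries far from the median of Mki67. Without them 20 members were called, against 20.1% of all genes, and Palb2 (r = 0.47, then 0.21), Msh6 (0.45, then 0.19), Brip1 (0.49, then 0.32) and Fancf (0.51, then 0.33) were no longer among them. By rho, Palb2 and Msh6 were not called either, and Chek2 was (rho = 0.38, adjusted p = 0.0491). Brca2 moved the other way, from 0.47 (interval 0.17 to 0.69, rho = 0.62, permutation p = 0.00347, adjusted p = 0.0119) to 0.83. In these libraries Mki67 was itself a weaker measure of its own list: only 6 of 13 other proliferation genes were called with it, at a median r of 0.35, and its r with their index was 0.41 (rho = 0.13, permutation p = 0.0140 for r and 0.438 for rho, adjusted p = 0.0308 for r), or 0.08 without the 2 libraries. In the 79 libraries all 13 were called and the index had an r of 0.98 (rho = 0.97, permutation p = 1e-05, adjusted p = 4.40e-05, 0.97 without 2 libraries).

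With that index in place of Mki67, 19 members were called in the 36 libraries, against 25.1% of all genes, and they were partly others. Msh6 had the highest r at 0.74, Fancg followed at 0.70 and Palb2 at 0.70, and Parp1 at 0.68 and Nbn at 0.61 were now called. Polq at 0.17, Xrcc2 at 0.14, Atr at 0.02, Atm at 0.25 and Brca2 at -0.26 were not. Which members move with proliferation in these 36 libraries therefore depends on whether Mki67 or the other genes stand for it. All 33 were called with either in the 79 libraries.

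Transcript length moved with these values. In the 36 libraries Mki67, whose longest transcript has 10061 bases, rose with the length slope of the library, the slope of its gene levels, relative to their means, on log2 transcript length (r = 0.76, rho = 0.69, permutation p = 1e-05, adjusted p = 4.40e-05, r = 0.64 without 2 libraries). All 9 members with a transcript of 6000 bases or more were called, at a median r of 0.74, against 48.5% of all genes of that length. Of the 10 members under 3000 bases 4 were called, namely Rad51ap1, Rad54b, Fancf and Fancg, at a median of 0.12, against 14.4%. Of the 14 in between 11 were called, against 25.3%. Among the long genes called were Atm, Atr, Polq and Brca2, and among the short ones not called were Parp2, Xrcc3, Fance and Nbn. Rad50, Rad51c and Parp1, of lengths in between, were not called either.

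With the length slope removed, 21 of 33 members were called in the 36 libraries, against 8.22% of all genes. Palb2, Fanca, Fancm and Msh6 were no longer called, and Chek2 was (r = 0.41). Rad51ap1 at 0.73, Xrcc2 at 0.69, Polq at 0.69, Blm at 0.65 and Rad54l at 0.65 were then the highest. In the 79 libraries, where the slope was less related to Mki67 (r = 0.27, rho = 0.28, permutation p = 0.0163, adjusted p = 0.0327, r = 0.25 without 2 libraries), all 33 were called with it removed, against 64% of all genes. The luminal index (r = -0.63, rho = -0.54, permutation p = 0.000210, adjusted p = 0.000770, r = -0.57 without 2 libraries) and the stroma index (r = -0.49, rho = -0.55, permutation p = 0.00245, adjusted p = 0.00770, r = -0.61 without 2 libraries) fell as Mki67 rose in the 36 libraries. The immune index did as well (r = -0.46, rho = -0.55, permutation p = 0.00501, adjusted p = 0.0122, r = -0.61 without 2 libraries). The part of these indices in the members' values in the 36 libraries was not tested.

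**Figure D4:**
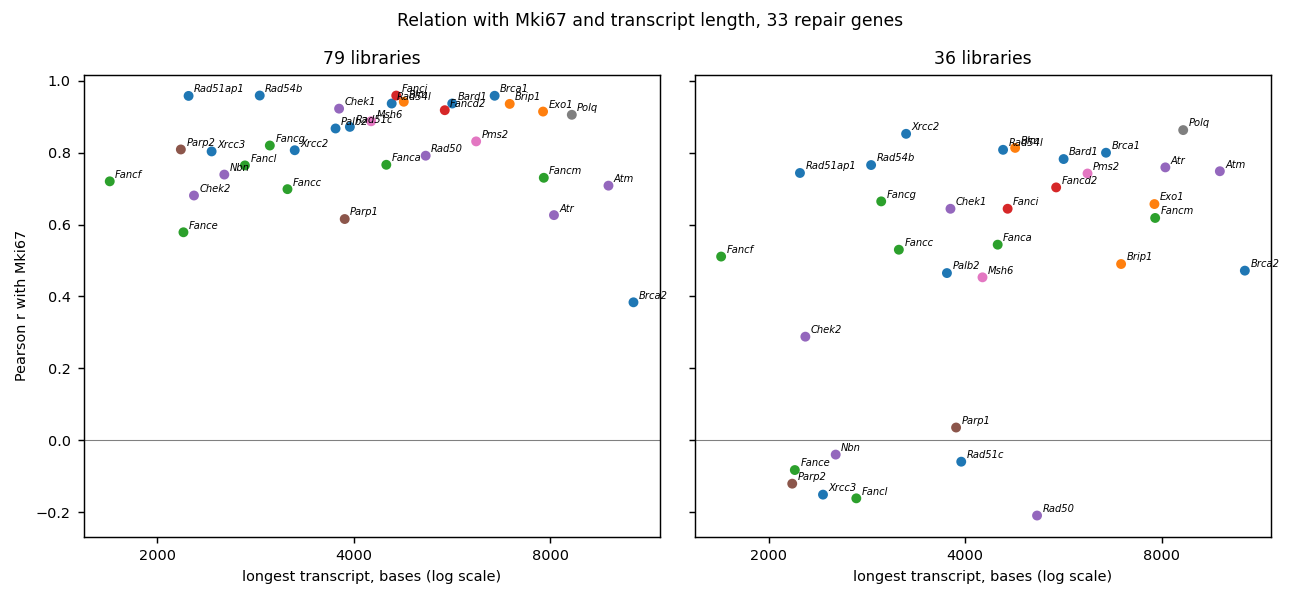
Pearson r with Mki67 (y axis) against the longest annotated transcript in bases, on a log scale (x axis), for the 33 genes, in the 79 libraries on the left and the 36 on the right, coloured by role as in the other plots. In the 36 libraries every gene of 6000 bases or more lies at 0.47 or above, and the 7 genes below 0 are all under 6000 bases.

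The members also moved with each other. Over their 528 pairs in the 79 libraries the median r was 0.79, against 0.42 over all pairs of genes kept, and 511 pairs were over 0.5. The closest were Rad51ap1 with Fanci, Brca1 with Fanci and Brip1 with Blm, each at 0.97. Brca1 and its partner Bard1 had an r of 0.95, Fancd2 and Fanci one of 0.94, and Rad50 and Nbn one of 0.92. Every one of the lowest 6 pairs held Brca2, from 0.39 with Brca1 to 0.19 with Parp1. Under median-of-ratios scaling the pair of Brca2 and Parp1 had an r of -0.75. These are descriptions over shared libraries, and genes are not independent replicates.

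With Mki67 held constant, the median partial r fell to 0.39, close to the 0.34 of all pairs. The pairs that then stood highest were not those of strand exchange. Nbn with Parp2 and Nbn with Msh6 led at 0.86, followed by Rad50 with Msh6 at 0.85, Brca2 with Atr at 0.84 and Rad50 with Nbn at 0.82. Brca1 with Bard1 stood at 0.52, and Brca1 with Brca2 at 0.08. The partner of Brca2 with the highest r, also before Mki67 was held constant, was Atr at 0.84, then Atm at 0.69.

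In the 36 libraries the median pair had an r of 0.37, against 0.14 over all pairs. Xrcc2 with Polq was highest at 0.95, and remained highest with Mki67 held constant at 0.80. Rad54l with Blm and Rad54b with Fancd2 followed at 0.90 and Atm with Atr at 0.86. Bard1 and Rad50 had the lowest r of -0.53.

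**Figure D5:**
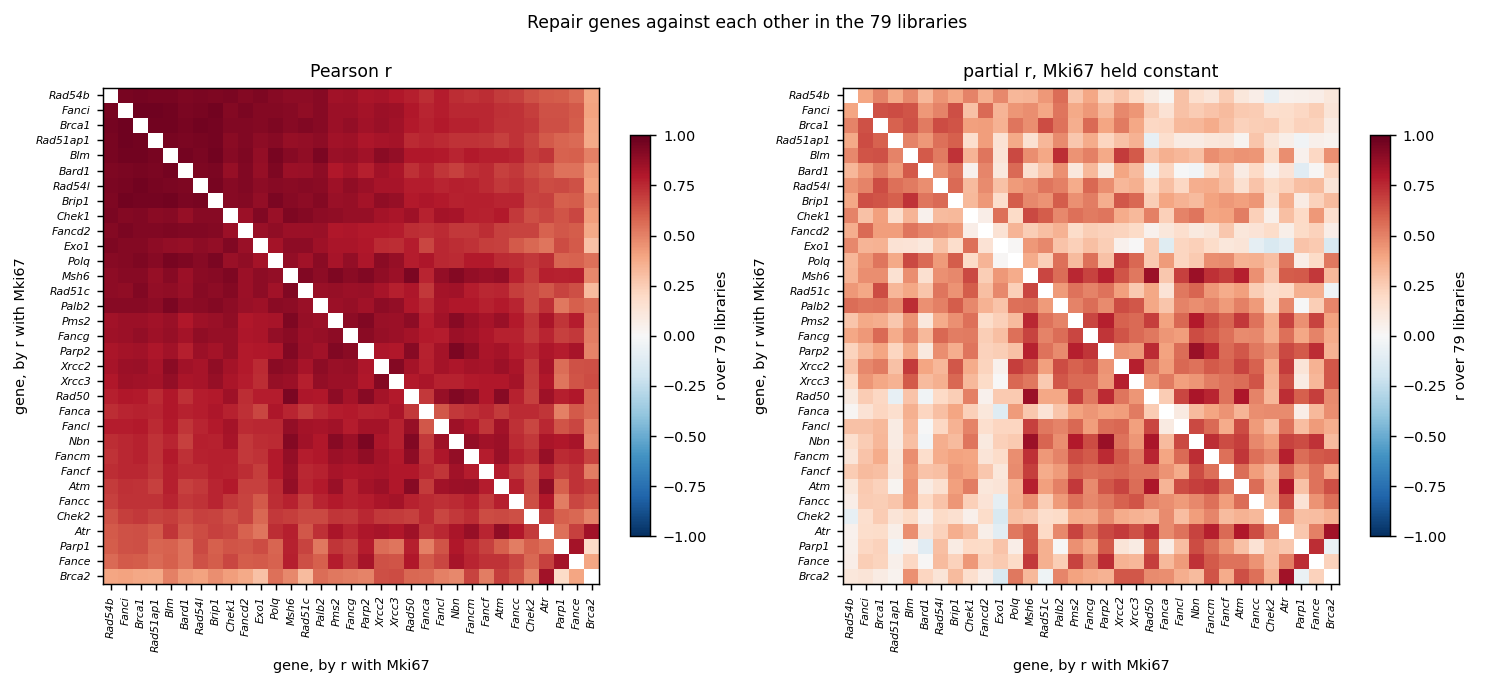
Pearson r on log2(TPM + 1) between each pair of the 33 genes (both axes, in the order of r with Mki67) over the 79 libraries, plain on the left and with Mki67 held constant on the right, red for positive and blue for negative values. The left map is red throughout with Brca2 palest, and on the right the strongest red cells join Nbn, Rad50, Msh6 and Parp2 with each other and Brca2 with Atr.

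Further genes of DNA repair were set beside the members. Of 82 further repair genes listed, 81 were tested and 79 were called higher with Mki67, against the same background of 72.9%. Under median-of-ratios scaling 44 were called higher and 6 lower, against 22.2% and 20% of all genes. All 18 further genes of homologous recombination were called, down to Rad51d at r = 0.46. The Fanconi partners ran from the ubiquitin-conjugating enzyme Ube2t at 0.93 to the nuclease Ercc4 at 0.51. In end joining 8 of 9 were called, from Xrcc6 at 0.80 to the exception Dclre1c at -0.06 (adjusted p = 0.614). Mismatch repair ran from the ligase Lig1 at 0.95 to Mlh3 at 0.47, with 6 of 6 called. Base excision repair had 12 of 13 called, from the glycosylase Neil3 at 0.90 to the exception Polb at 0.19 (adjusted p = 0.122). All 14 genes of nucleotide excision repair were called, but at lower values, from Gtf2h4 at 0.74 to Ddb1 at 0.40. The 13 checkpoint partners ran from Clspn, the adaptor through which ATR activates CHK1, at 0.95 to Wee1 at 0.36.

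In the 36 libraries 31 of the 81 were called higher and 4 lower, against 23.3% and 20.8% of all genes. Among the highest r per list were Rmi2 at 0.84, Atad5 at 0.81, Rif1 at 0.83, Msh3 at 0.92, Neil3 at 0.75, Ercc6 at 0.61 and Clspn at 0.88. Among the lowest were Rad51d at -0.60, Mpg at -0.47, both called lower, with Faap24 at -0.10, Nhej1 at -0.05, Mlh3 at -0.13 and Hus1 at -0.17, which were not called.

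Some members share sequence with other genes, and nothing in the protocol says that strand was kept. Rad54b shares 2068 of its 5782 exon bases with Fsbp on the same strand, and Fsbp had an r of 0.80 with Mki67 in the 79 libraries at a median of 0.45 TPM. On opposite strands, Rad54l shares 1184 bases with Lrrc41 (r = 0.40), Fanci 921 with Polg (r = 0.73) and Fanca 920 with Zfp276 (r = 0.66). Fancl overlaps Vrk2 (r = 0.77) in the same way. In these libraries the r of Rad54b, Rad54l, Fanci and Fanca stood above that of the overlapping gene, and for Fancl the values lay side by side at 0.76 and 0.77. Across the 36 libraries Fsbp had an r of 0.82, above the 0.77 of Rad54b, and Polg one of 0.64, as Fanci had. Lrrc41 at 0.35 and Zfp276 at 0.28 lay below Rad54l at 0.81 and Fanca at 0.54.

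Brca2 has stretches of up to 124 bases that are 95.1% to 97.1% identical to 21 other annotated genes, 20 of them short genes annotated as miRNA. The most abundant of these, Gm24303, had a median of 18.02 TPM. In the 79 libraries Brca2 had an r of 0.32 with it (rho = 0.39, permutation p = 0.00361, adjusted p = 0.0289 over 8 relations, r = 0.34 without 2 libraries), and in the 36 one of 0.11 (rho = 0.08, permutation p = 0.508, adjusted p = 0.677, r = 0.08 without 2 libraries). Exo1 matches 18 such genes, Chek2 and Rad51ap1 7 each and Blm 1. Brca1, which matches none of them, had an r of 0.06 with Gm24303 in the 79 libraries (rho = 0.05, permutation p = 0.609, adjusted p = 0.696, r = 0.02 without 2 libraries). Exo1 and Chek2 both match Gm24303. Exo1 had an r of -0.02 with it in the 79 (rho = -0.02, permutation p = 0.890, adjusted p = 0.890) and -0.23 in the 36. Chek2 had an r of 0.22 in the 79 (rho = 0.25, permutation p = 0.0543, adjusted p = 0.217) and 0.15 in the 36. The longest match of Brca2 with Gm24303 lay in an annotated Brca2 transcript of 588 bases. Whether reads of such copies enter the level of Brca2 or of the other matching members was not tested. RSEM divides reads that match several transcripts by estimation. The levels of Brca2, Exo1, Chek2, Rad51ap1 and Blm, and their ranks among the members, are uncertain to that extent.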

How the data were processed

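The authors removed ribosomal RNA, sequenced each library to a stated minimum depth in pairs of 126 bases, trimmed with Trimmomatic, aligned with Bowtie2 2.2.5 to an allele-specific transcriptome built with Seqnature and quantified with RSEM 1.2.20 (CASAVA 1.8.2 is also in the submitters' processing notes, with the build GRCm38). The deposited values are TPM made by the authors, which have the same sum in every library, so depth per value is unknown and no count model or counting interval was used. The annotation release is not given in the sources used here. Symbols, positions and exons come from GENCODE M21, which matched 98.8% of genes.

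Genes whose mean TPM over all libraries was 1 or more were kept and log2(TPM + 1) was used. The first principal component was split where 2 normal distributions beat 1 by over 10 in BIC, with an Ashman D above 2 (here 6.10) and no part under 6 libraries. Pearson r and Spearman rho with Mki67 were tested for every gene with 100000 permutations and adjusted by Benjamini-Hochberg over all genes; the steps were tested on simulated data. The titles name each library after a different mouse, but the study's text gives fewer RNA samples than there are libraries, and p-values measure the spread between libraries. An index is the mean z-score of a marker list. Members are named by level and r, with full statistics for the highest and lowest r in each role and for Polq. In the other lists the highest and lowest are named, except for genes that are not reported here, and promoters were to be shown for the 3 highest and 3 lowest members. The members, lists and tests were chosen with earlier results of these data known. Near-identical copies were found with BLAST+ 2.17.0 at 95% identity over 80% of the shorter transcript. Alternatives changed the pseudocount, scaling, filter, correlation, part, adjustment and proliferation measure; those for length, the immune index, the rescaled 36 libraries, their 2 farthest libraries and their proliferation index were chosen after seeing the data. The work used scikit-learn 1.9.0, scipy 1.17.1, pandas 2.3.3 and numpy 2.4.6 under Python 3.11.15.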

Additional observations from a re-analysis of the deposited data

How the results depend on the processing

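In the 79 libraries all 33 members were called under a pseudocount of 0.1, Spearman's rho, both other filters, the proliferation list in place of Mki67 and without the 2 farthest libraries, and also without 1 of 2 libraries with nearly alike labels. The share of all genes called under these settings ranged from 36.1% to 73.8%. The count moved to 18 of 33 with 3 principal components removed, against 8.99% of all genes. In the 36 libraries it was 21 with the length slope removed (8.22% of all genes), 20 without the 2 farthest libraries (20.1%) and 19 with the proliferation list (25.1%). The median r of members was 0.62 in the 36 libraries, 0.34 with 3 components removed, and, within the 36, 0.59 after median-of-ratios scaling, 0.47 without the length slope, 0.42 without 2 libraries and 0.44 with the proliferation list. Of the 81 other repair genes tested, 44 were called higher under median-of-ratios scaling (22.2% of all genes) and 23 with 3 components removed (8.99%). In the 36 libraries 31 were (23.3%), and there 28 rescaled (23.6%) and 15 without the length slope (8.22%). Without 2 of those libraries 22 were called (20.1%), and with the proliferation list 47 (25.1%). Detection fell to 13 members at 1 TPM in every library. The median r of pairs was 0.56 under median-of-ratios scaling, 0.67 without the 20 genes, 0.63 with 5 tissue indices removed, 0.24 with 3 components removed and 0.39 with Mki67 held constant, and in the 36 libraries 0.37, 0.20 with Mki67 held constant and 0.29 without the length slope.

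For the members given with full statistics, 223 values under alternatives kept direction and call, 17 lost the call and 15 turned sign. Of the others, Rad50, Xrcc3, Fancl, Rad51c and Nbn had negative r in the 36 libraries, at -0.21, -0.15, -0.16, -0.06 and -0.04, and with 3 components removed Nbn was at -0.43 and Atm just below 0. Brca2 turned to -0.018 under median-of-ratios scaling and -0.26 with the proliferation list in the 36 libraries. Fance was -0.24 with 3 components removed and, in the 36, -0.083, -0.38 rescaled, -0.075 without the length slope and -0.24 without 2 libraries. Parp1 was -0.018 with 3 components removed and, in the 36, -0.20 rescaled and -0.30 without 2 libraries. Parp2 was -0.022 with 3 components removed and, in the 36, -0.12, -0.34 rescaled, -0.077 without the length slope and -0.23 without 2 libraries. The cause of these turns was not tested. No paired analysis was possible because every library belongs to a single group with no replicate numbers to pair. TPM keep no depth, so how far counting noise adds to the low values of Bard1 and Polq is unknown.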
